A study of Mus musculus with 27 samples.

Results

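10 genes of enteroendocrine cells, the hormone-releasing cells of the gut epithelium, were followed through a dose series of the dioxin TCDD in mouse colon: Chga, Chgb, Gcg, Pyy, Cck, Sst, Tph1, Insl5, Neurod1 and Scg2. They were chosen by name, as hormones, granule proteins, the serotonin enzyme and 1 transcription factor of these cells, by a rule that uses no measured value, though with earlier results of these data known. All 10 were found among the 46078 genes counted, and all 10 were among the 16496 genes with enough counts to be tested. RNA-seq had been run on scrapings of colonic epithelium from 27 male C57BL/6 mice, 28 days old at the first gavage and 56 days old at the end. All mice were gavaged every 4 days for 28 days, 7 times in all. In each group 3 mice were studied: those given the sesame oil vehicle alone, and those given TCDD in that oil at 1 of 8 doses that climbed in steps of about 3-fold, the low ones being 0.01, 0.03, 0.1 and 0.3 μg/kg and the high ones reaching from 1 through 3 and 10 to 30 μg/kg. The mice carried no engineered allele per the labels, and no record of where along the colon each scraping was taken was given in the sources used here. Mice are named by the number in their label.

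Enteroendocrine cells are scattered singly among absorptive and goblet cells and store their products in dense core granules that also hold chromogranins and secretogranins. In the colon they fall largely into enterochromaffin cells, which make serotonin through tryptophan hydroxylase 1 (Tph1), L cells, which make proglucagon peptides (Gcg), peptide YY (Pyy) and, towards the rectum, insulin-like peptide 5 (Insl5), and D cells, which make somatostatin (Sst). The mixture of these cells changes from the caecum to the rectum, so that 2 scrapings from different stretches of colon can differ in these genes without any treatment. TCDD binds the aryl hydrocarbon receptor (AhR), which acts on target genes together with ARNT.

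The promoters of 4 members are shown because these genes moved in opposite directions along the colon: Insl5 and Pyy with the distal marker Hoxb13, Chga and Tph1 against it. RefSeq held a start for all 10 members (GRCm38.p6). The bases printed lie before that start and before the start of the GENCODE gene model, 5′ to 3′ on the strand of the gene. Capitals mark CANNTG, the E-box bound by basic helix-loop-helix factors such as Neurod1, and GCGTG, the core of the element bound by AhR, searched on both strands. The Insl5 stretch is chr4:103026843-103026978 (minus strand), that of Pyy chr11:102107833-102108082 (minus), that of Chga chr12:102554691-102554940 (plus) and that of Tph1 chr7:46672538-46672787 (minus).
Insl5: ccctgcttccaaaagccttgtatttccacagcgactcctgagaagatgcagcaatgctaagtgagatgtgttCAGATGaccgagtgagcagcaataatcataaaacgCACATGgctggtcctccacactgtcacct
Pyy: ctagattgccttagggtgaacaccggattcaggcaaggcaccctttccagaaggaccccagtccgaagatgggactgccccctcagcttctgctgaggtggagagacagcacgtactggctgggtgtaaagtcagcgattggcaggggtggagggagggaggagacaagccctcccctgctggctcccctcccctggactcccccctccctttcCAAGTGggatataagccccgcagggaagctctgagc
Chga: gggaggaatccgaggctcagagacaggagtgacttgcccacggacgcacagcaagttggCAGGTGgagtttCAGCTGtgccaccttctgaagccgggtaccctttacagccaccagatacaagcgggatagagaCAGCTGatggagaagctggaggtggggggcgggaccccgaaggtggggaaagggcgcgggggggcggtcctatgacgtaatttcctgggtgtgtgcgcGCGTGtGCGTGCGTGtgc
Tph1: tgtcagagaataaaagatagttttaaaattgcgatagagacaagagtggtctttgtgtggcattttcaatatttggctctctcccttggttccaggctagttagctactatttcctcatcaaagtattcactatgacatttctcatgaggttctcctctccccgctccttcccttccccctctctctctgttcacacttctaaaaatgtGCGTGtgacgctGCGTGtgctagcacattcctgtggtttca

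Over the 250 bases before the RefSeq start, 9 of the 10 members held a CANNTG, against 66.2% of 32851 promoters, and Tph1 was the member without one. The GCGTG core was present in 5 members (Chga, Tph1, Sst, Neurod1 and Scg2), against 28.2% of all promoters. Chga held it 3 times and Tph1 2 times, close to the start as printed, whereas Insl5 and Pyy held none in this window. The GCGTG matches of Neurod1 and Scg2 lay within the GENCODE gene model, as did the whole window of Chgb. The letters CAATAAA, the core bound by Hox proteins of the 13 group, occurred in 0 of the 10 members and in 4.2% of all promoters. The form CAGATG, 1 of the CANNTG sequences and known from NeuroD1 binding, was found in Insl5, Gcg and Cck and in 14.4% of all promoters. A match is a description of the letters only, and the absence of a match says nothing about a factor.

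The library sizes ranged from 9305441 to 14371035 gene counts per mouse, with a median of 11651026. The index barcodes were used over again after the first 16 libraries, and the dose followed this split: the first index set held all mice up to 0.3 μg/kg plus mouse 41 of the 1 μg/kg group, and the second held the other 11 mice. Scrapings carried the epithelial identity of their label, with 12 of 12 epithelial markers tested and a summed level of 40640 to 63090 CPM, read counts scaled to a common library total of 1e+06. Exocrine pancreas transcripts exceeded 100 CPM in sum in 5 mice (vehicle mouse 3, mouse 14 at 0.01, 44 at 1, 59 at 10 and 66 at 30 μg/kg), reaching 3762 CPM. Since islets also express Gcg, Sst, Pyy and Chga, the islet transcripts were examined in addition, and Ins1 had at most 1 count and Ins2 at most 10 counts in any mouse. Ppy, also a hormone of islets, had 5 to 43 counts in every mouse (mean 1.65 CPM), and the part of islet cells in the members was not tested.

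Chgb and Chga had the highest levels per length among the members, and Cck and Scg2 the lowest. Levels are compared between genes per kilobase of exon, as means over 27 mice with their SD. Chgb, a granin that helps to form the granule core, led with 93.5 ± 21.3 CPM per kb, and Chga, the granin used as the general enteroendocrine marker, followed with 49.8 ± 11.1. Among the L cell hormones Pyy stood at 30.7 ± 8.13, Gcg at 26.9 ± 5.40 and Insl5 at 20.6 ± 14.01 CPM per kb, spreads that overlap one another. Tph1 (6.25 ± 1.51) and Sst (3.66 ± 1.56) were lower, and Neurod1, which drives enteroendocrine differentiation, was at 1.94 ± 0.311. Cck, the hormone of duodenal I cells, and Scg2, a second granin also made by neurons, were lowest at 0.866 ± 0.340 and 0.608 ± 0.366 CPM per kb. The lowest members rested on few reads: Cck on 4 to 23 counts per mouse, Scg2 on 3 to 49 and Sst on 11 to 61. Neurod1 shares 201 exon bases with Cerkl on the same strand, which had 5 to 27 counts, and 154 with an opposite-strand transcript of at most 7 counts. No other member shared exon bases with another gene.

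The members differed in how widely they ranged over the 27 mice. Insl5 ranged 11.5-fold over all mice, from 3.79 to 43.4 CPM, and Scg2 14.2-fold, from 0.294 to 4.18 CPM. Chga (81.8 to 206 CPM), Chgb (161 to 431 CPM), Tph1 (23.9 to 65.3 CPM) and Gcg (26.4 to 56.9 CPM) ranged between 2.15-fold and 2.73-fold, and Neurod1 only 1.80-fold, from 3.802 to 6.83 CPM. Hoxb13, the most posterior gene of the HoxB cluster, was used as a stand-in for the place of each scraping along the colon, which is not given in the sources used here. It ranged 28.3-fold, from 5.74 CPM in mouse 25 (0.1 μg/kg) to 162 CPM in mouse 57 (10 μg/kg). At no dose was Hoxb13 found to differ from vehicle (quasi-likelihood test of edgeR, Benjamini-Hochberg adjusted p from 0.749 to 0.9993 over 8 doses). The lowest unadjusted p of that test was 0.259. The log2 change ran from -0.954 at 0.01 to 0.596 at 10 μg/kg. Group means at these doses were 32.2 and 93.9 CPM, against 62.1 CPM in vehicle mice. Standard errors ran from 0.80 to 0.82, and log2 changes of that size were not detectable. Whether Hoxb13 was even over the doses was not tested. Its rise within dose groups went with a rise of Hoxa13 (log2 change of 0.43 per doubling of Hoxb13, SE 0.033) and Hoxd13 (1.96, SE 0.20), and of 7 tested markers listed as proximal 5 fell (4.1% of all genes fell): Hoxb6 (-0.39, SE 0.054), Hoxb7 (-0.31, SE 0.050), Hoxb8 (-0.40, SE 0.057), Osr2 (-0.42, SE 0.076) and Cyp2c55 (-0.20, SE 0.047). The other 2 of these proximal markers rose with Hoxb13 (5.02% of all genes rose), against their listing: Aqp4 (0.37, SE 0.066) and Hoxa5 (0.21, SE 0.052).

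Hoxb13, the stand-in for position, was associated with most members in the fit of all mice. In the fit with a mean for each of the 9 dose groups, 7 of the 10 members had a slope on log2 Hoxb13 at an adjusted p under 0.05, and 9.12% of the 16495 genes tested did so. The count of members ran from 4 to 8 with each mouse left out. Insl5 and Pyy rose with Hoxb13 (5.02% of all genes rose), and Chgb, Chga, Tph1, Cck and Neurod1 fell (4.1% of all genes fell). The median slope was -0.17 over the members and -0.0033 over all genes. In a bulk scraping, fewer cells of a type and less RNA per cell cannot be told apart.

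**Figure D1:**
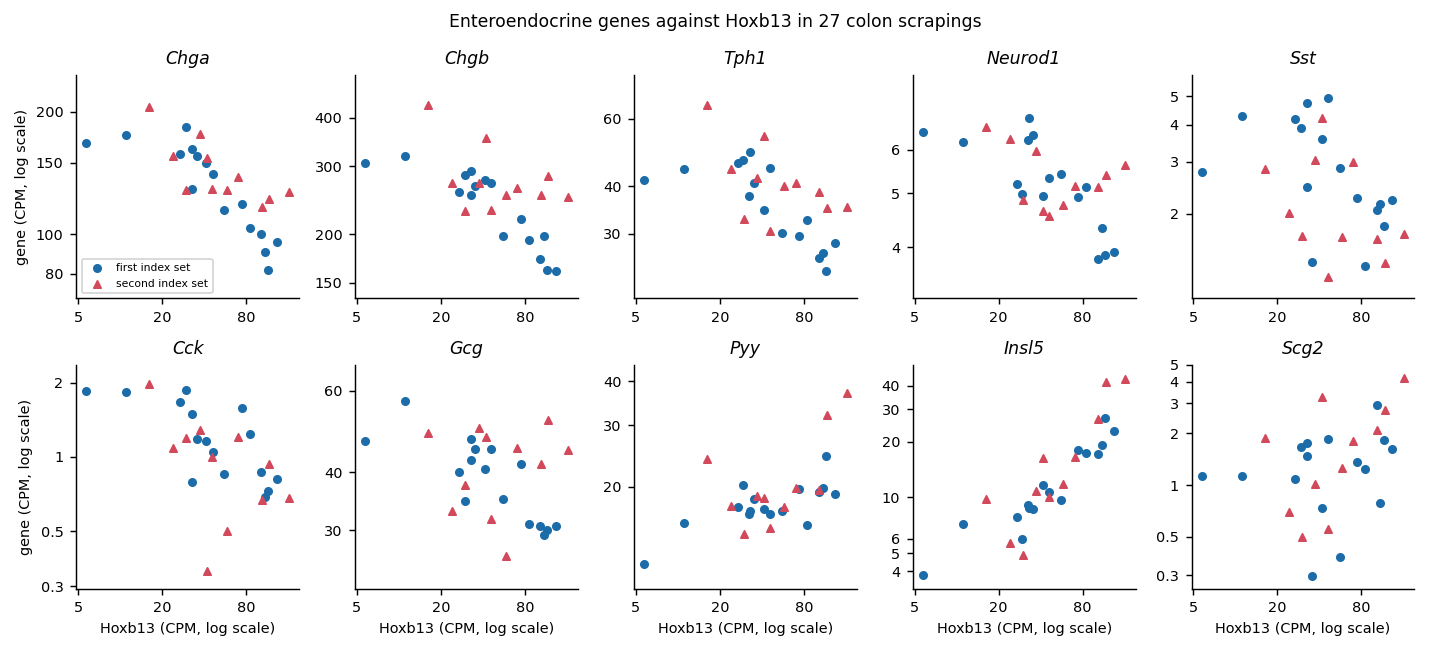
Level of each member (CPM, log scale) against Hoxb13 (CPM, log scale) in the 27 mice, with circles for the first and triangles for the second index set. Insl5 climbs from 3.79 to 43.4 CPM as Hoxb13 goes from 5.74 to 162 CPM, whereas Chga, Chgb and Tph1 descend.

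Insl5, the hormone of distal colonic L cells, had the steepest slope. Mouse 25, with the lowest Hoxb13, had 3.79 CPM of Insl5, and mouse 57, with the highest, had 43.4 CPM. In vehicle mice 2, 3 and 4 Insl5 stood at 19.1, 11.7 and 8.64 CPM beside 110, 41.5 and 35.3 CPM of Hoxb13. In all 9 groups the mouse with most Hoxb13 was also the mouse with most Insl5. Insl5 rose 1.57-fold per doubling of Hoxb13 (log2 0.65, SE 0.063, Benjamini-Hochberg adjusted p 1.75e-07, quasi-likelihood test of edgeR). Hoxb13 took up 82.0% of the within-group sum of squares of Insl5, where the median over all tested genes was 5.58%. The slope was 0.56 (SE 0.067) in the 16 mice of the first index set and 0.75 (SE 0.11) in the 11 mice of the second.

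Peptide YY, a hormone of the same cells that slows gut transit, moved with Hoxb13 more shallowly. Its level was 12.1 CPM in the lowest, 18.5 CPM in the median and 37.1 CPM in the highest of the 27 mice, and mice 57 and 65, both rich in Hoxb13, held the top 2 values with 37.1 and 32.1 CPM. In 7 of 9 groups the mouse with most Hoxb13 had most Pyy. Pyy rose 1.11-fold per doubling (log2 0.15, SE 0.042, adjusted p 0.0303). This call was lost when any of mice 18, 20, 25, 41 or 57 was left out (adjusted p 0.0503 to 0.101) and in either index set alone. Gcg, the third L cell gene and the source of GLP-1 and GLP-2, had a slope of -0.13 (SE 0.051, adjusted p 0.139) that did not pass. It was -0.21 (adjusted p 0.0127) in the first index set and 0.019 (adjusted p 0.982) in the second, and the difference between the sets was not tested. The 3 L cell hormones thus had slopes of 0.65, 0.15 and -0.13, and within dose groups Insl5 correlated with Pyy (Pearson r 0.68 on log2 CPM, as deviations of 27 mice from their group means) and hardly with Gcg (r -0.21). These correlations are descriptions over libraries that differ in depth.

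Chga, Chgb and Tph1 fell with Hoxb13. Chga was 81.8 CPM in the lowest mouse (18, with 116 CPM of Hoxb13), 129 CPM in the median and 206 CPM in the highest (58, with 16.2 CPM of Hoxb13). Chgb and Tph1 were also highest in mouse 58, at 431 and 65.3 CPM. Tph1, which carries out the rate-limiting step of serotonin synthesis, was lowest in the mouse with most Hoxb13 in all 9 groups, and Chga and Chgb were so in 8 of 9. Per doubling of Hoxb13, Chga fell by 0.24 on the log2 scale (SE 0.033, adjusted p 3.08e-05). Chgb fell by 0.23 (SE 0.031, adjusted p 1.88e-05), and Tph1 fell by 0.22 (SE 0.036, adjusted p 0.000218). Hoxb13 took up 71.8% of the within-group sum of squares of Chga, 73.4% of that of Chgb and 64.8% of that of Tph1.

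Within dose groups these 3 genes varied together. Pearson's r on deviations of log2 CPM from the group means, over 27 mice, was 0.94 between Chga and Chgb, 0.92 between Chga and Tph1 and 0.93 between Chgb and Tph1, and -0.77 between Chga and Insl5. The ratio of Insl5 to Chga in CPM ran from 0.0226 in mouse 25 to 0.345 in mouse 65, a span of 15.3-fold against 2.51-fold for Chga alone. Among all tested genes, those with the highest such r to Insl5 were Irs1 (0.95), St6galnac4 (0.94) and Clic6 (0.94). For Chga they were Fth1, Farp2 and Chgb (0.95, 0.95 and 0.94), and for Tph1 Lpo, Chgb and Prnp (0.94, 0.93 and 0.93).

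The scarcer hormones and the transcription factor had less certain slopes. Cck ran from 0.345 to 1.97 CPM, with the top value in mouse 58, and fell by 0.30 per doubling of Hoxb13 (SE 0.087, adjusted p 0.0342). Neurod1 fell by 0.12 (SE 0.037, adjusted p 0.0394). The Cck call was lost without any 1 of 11 mice (2, 11, 14, 18, 20, 25, 33, 35, 57, 58 and 59, adjusted p 0.052 to 0.212). That of Neurod1 was lost without any 1 of 15 (2, 4, 11, 18, 20, 28, 33, 35, 41, 44, 49, 51, 52, 58 and 59, adjusted p 0.0514 to 0.0995). Sst, the inhibitory hormone of D cells, had a slope of -0.27 (SE 0.090, adjusted p 0.0615) that did not pass, but did so without vehicle mouse 4 (-0.30, adjusted p 0.03), mouse 41 (-0.30, 0.0338) or mouse 52 (-0.30, 0.035). Gcg passed without mouse 65 (-0.15, 0.0485) or mouse 66 (-0.13, 0.0428). Scg2 was the member least tied to position, with a slope of 0.23 (SE 0.12, adjusted p 0.323) and 10.9% of its within-group sum of squares on Hoxb13.

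Markers of other cell types were tested for the same slope, with which 5.02% of all genes rose and 4.1% fell. By the same test in edgeR 0 of 11 tested neuron markers, 0 of 8 muscle markers, 0 of 2 glial markers and 0 of 9 pancreas markers had a slope on Hoxb13, and 1 of these, a pancreas marker, had an unadjusted p under 0.05. DESeq2 called 1 pancreas marker and limma voom 0. Of 3 tested mast cell markers 1 fell, Kit (-0.13, adjusted p 0.00893), and the other 2 had slopes above 0 without a call. Kit averaged 159 CPM and every other mast cell marker at most 0.636 CPM (Gata2). Which cells gave the Kit reads was not tested. Of the 12 epithelial markers 2 rose (Slc26a3 and Cdh1) and 3 fell (Car1, Cdx2 and Muc2). Without the 5 mice with pancreas transcripts the slope was 0.66 for Insl5 (adjusted p 1.07e-07), -0.22 for Chga (0.000486), -0.21 for Chgb (0.00017), -0.20 for Tph1 (0.00281) and 0.17 for Pyy (0.00303), while the calls of Cck (-0.25, 0.154) and Neurod1 (-0.13, 0.0928) were lost.

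**Figure D2:**
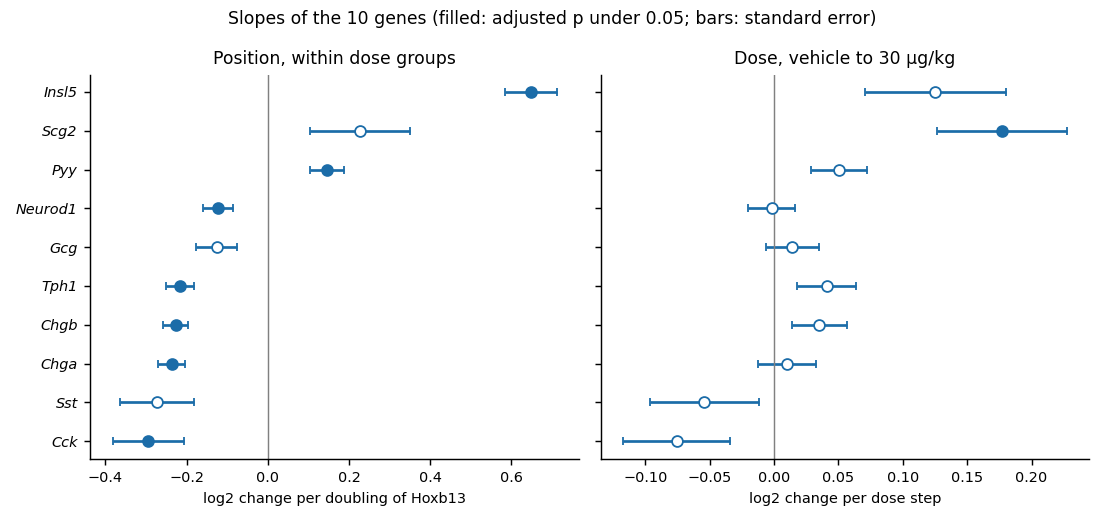
Slope of each member on Hoxb13 within dose groups (left, log2 change per doubling of Hoxb13) and over the 9 dose ranks (right, log2 change per dose step), as point and standard error. Filled points passed an adjusted p of 0.05: 7 members for position and Scg2 for dose.

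Of the members, Scg2 alone was called against vehicle. From 0.01 to 3 μg/kg, 0 of the 60 comparisons of a member with vehicle passed an adjusted p of 0.05 and a fold of 1.5 in the quasi-likelihood test of edgeR (lowest adjusted p 0.509), and 2 had an unadjusted p under 0.05. DESeq2 and limma voom called 0 of these 60 as well. The share of all genes called was 0% up to 0.3 μg/kg, 0.2% at 1 (0.139% higher and 0.0606% lower) and 0.697% at 3 μg/kg (0.303% higher and 0.394% lower). At 10 μg/kg 1 of the 10 members was called (1.78% of all genes, 0.812% higher and 0.97% lower) and at 30 μg/kg 1 of 10 (6.16% of all genes, 2.95% higher and 3.21% lower). The called member was Scg2 at both doses, and it was also the member with a slope over the 9 dose ranks (23.4% of all genes had one). With 10 members, a count of 1 beside these shares is no result about the members as a group. All doses share the 3 vehicle mice.

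**Figure D3:**
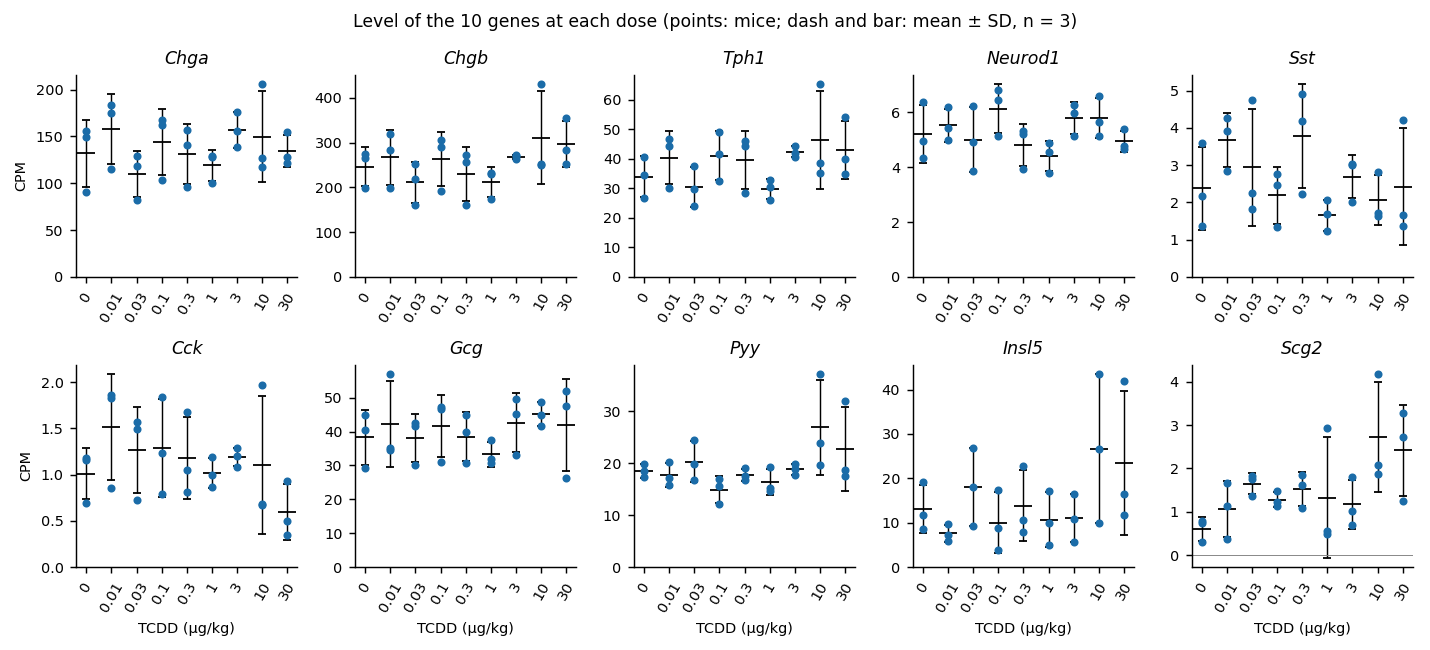
Level of each member in CPM at vehicle (0) and the 8 doses of TCDD in μg/kg (points are mice, dashes and bars mean ± SD, n = 3). Scg2 lies at 0.294 to 0.787 CPM in vehicle mice and at 1.25 to 3.28 CPM at 30 μg/kg, while the other members overlap vehicle at that dose.

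Among the hormones of L cells, Insl5 in the 3 mice at 30 μg/kg stood at 42.0, 11.8 and 16.4 CPM, against 19.1, 11.7 and 8.64 CPM in vehicle mice. Mouse 65 stood apart at the top dose, with 117 CPM of Hoxb13, and the groups overlapped. The fold at 30 μg/kg was 1.79 (log2 0.84, SE 0.59, adjusted p 0.383). It was log2 0.099 (SE 0.62) without mouse 65 and log2 2.06 (SE 1.05) once index set was fitted too, and neither passed. Pyy at 10 μg/kg was 37.1, 23.97 and 19.6 CPM, against 19.9, 17.3 and 18.5 CPM in vehicle mice, and it came closest among the other members at that dose (1.45-fold, log2 0.53, SE 0.21, unadjusted p 0.0203, adjusted p 0.181). Gcg was within 1.18-fold of vehicle at both doses.

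Chga, Chgb, Tph1, Cck, Sst and Neurod1 also overlapped vehicle at 30 μg/kg. Chga was 122, 128 and 154 CPM at 30 μg/kg and 90.3, 149 and 156 CPM in vehicle mice (1.02-fold, log2 0.03, SE 0.25, adjusted p 0.954). Chgb was 1.204-fold (log2 0.27, SE 0.23, adjusted p 0.498) and Tph1 1.27-fold (log2 0.34, SE 0.24, adjusted p 0.381) of vehicle at that dose. Cck had the lowest fold at 30 μg/kg (0.606-fold, log2 -0.72, SE 0.50, adjusted p 0.373), with 0.935, 0.502 and 0.345 CPM against 0.689, 1.16 and 1.18 CPM. Sst (log2 0.02, SE 0.45) and Neurod1 (log2 -0.08, SE 0.19) stood near 0. Standard errors ran from 0.19 for Neurod1 to 0.60 for Scg2 at this dose, and log2 changes of that size were not detectable.

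The slope over dose rank was also fitted with Hoxb13 held. In that fit 3 of 10 members had a slope (25.3% of all genes did), a count near the share over all genes and no result about the members as a group: Scg2, Chgb and Tph1, all higher with dose (12.9% of all genes rose). Chgb rose by 0.05 on the log2 scale per dose step (SE 0.015, adjusted p 0.00979) and Tph1 by 0.06 (SE 0.016, adjusted p 0.00865), where without Hoxb13 the slopes were 0.04 for both (adjusted p 0.241 and 0.198). Standard errors fell from 0.021 and 0.023 to these values. With the index set in the fit as well, the slopes were 0.02 for Chgb (adjusted p 0.809) and 0.06 for Tph1 (adjusted p 0.333). In that fit 83 of 16496 genes had a dose slope, against 3865 in the main fit, so that dose and index set cannot be told apart. With the neuron markers in the fit in place of Hoxb13, the slopes were 0.0056 for Chgb (adjusted p 0.924) and 0.010 for Tph1 (adjusted p 0.863), and 1776 of 16496 genes had a dose slope. Between 3 and 30 μg/kg, both wholly in the second index set, 0 of 10 members were called, with or without Hoxb13 (0.461% of all genes without it). No member had an unadjusted p under 0.05 in that comparison without Hoxb13 by edgeR, and DESeq2 and limma voom called 0 as well.

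Scg2, the granin shared by enteroendocrine cells and neurons, was the exception in the comparison with vehicle. Vehicle mice 2, 3 and 4 had 0.787, 0.738 and 0.294 CPM, from 8, 7 and 3 counts. At 10 μg/kg mice 57, 58 and 59 had 4.18, 1.88 and 2.09 CPM, and at 30 μg/kg mice 65, 66 and 67 had 2.73, 1.25 and 3.28 CPM, from 15 to 49 counts. All 6 mice lay above the 3 vehicle mice. So did all mice at 0.03 (1.37 to 1.82 CPM), 0.1 (1.13 to 1.485 CPM) and 0.3 μg/kg (1.09 to 1.86 CPM), so that this was not particular to the 2 top doses. The groups at 0.01, 1 and 3 μg/kg overlapped vehicle, with up to 2.93 CPM at 1 μg/kg. Scg2 rose 4.42-fold at 10 μg/kg (log2 2.15, SE 0.60, adjusted p 0.0486) and 3.96-fold at 30 μg/kg (log2 1.99, SE 0.60, adjusted p 0.035). Once index set was fitted too, an effect that only the 1 μg/kg group (the one with mice of both sets) can estimate, these values were 24.3-fold (log2 4.60, SE 0.84) and 21.7-fold (log2 4.44, SE 0.84), so that the size of the rise depended on that term. Per dose step it rose by 0.18 (SE 0.051, adjusted p 0.011), as 11.8% of all genes did. This dose slope lost its call under 5 of 11 alternatives, over which it ran from 0.089 to 0.397 (adjusted p up to 0.397). At 30 against 3 μg/kg Scg2 was 2.07-fold (log2 1.05, SE 0.53, adjusted p 0.477). The call at 10 μg/kg was lost without any 1 of the 6 mice (2, 3, 4, 57, 58 and 59, adjusted p 0.0572 to 0.189). The call at 30 μg/kg was lost without mouse 2, 3, 4, 65 or 67 (adjusted p 0.0706 to 0.137).

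The levels of neuron, muscle and glial markers were set beside those of Scg2. The 17 neuron markers summed to 10.8 to 14.6 CPM in vehicle mice, 16.6 to 28.5 CPM at 10 and 17.9 to 46.1 CPM at 30 μg/kg, and 1 of 11 tested (Ret) was higher at 10 μg/kg (0.812% of all genes) and 7 of 11 at 30 μg/kg (2.95% of all genes), where limma voom called 4. Over dose rank 6 of 11 rose by edgeR (11.8% of all genes) and 1 fell (11.6% of all genes), Chat (-0.12 per dose step, adjusted p 0.0386). The 8 muscle markers summed to 76.8 to 125 CPM in vehicle mice, 193 to 307 CPM at 10 and 124 to 731 CPM at 30 μg/kg, where mouse 66 lay within the vehicle range. By edgeR 0 of 8 were called at 10 μg/kg (4 had an unadjusted p under 0.05; DESeq2 and limma voom called 0) and 0 of 8 at 30 μg/kg (7 had an unadjusted p under 0.05; DESeq2 called 1 and limma voom 0), while 4 of 8 rose over dose rank (11.8% of all genes). The 8 glial markers summed to 3.53 to 4.72 CPM in vehicle mice and 2.76 to 6.29 CPM at 30 μg/kg, and 0 of 2 tested were called by edgeR, DESeq2 or limma voom (0 with an unadjusted p under 0.05 by edgeR). Of the neuron markers Npy had at most 1 count in any mouse, and Tubb3 and Gap43 were among those at 0 in some mice. With the log2 sum of neuron markers in the fit, Scg2 was 1.95-fold of vehicle at 30 μg/kg (log2 0.96, SE 0.77, adjusted p 0.588) and 3.00-fold at 10 μg/kg (log2 1.59, SE 0.63, adjusted p 0.226). With that of muscle markers it was 2.098-fold (log2 1.07, adjusted p 0.297) and 2.88-fold (log2 1.53, adjusted p 0.134). Calls over all genes at 30 μg/kg also fell, from 1016 to 317 with the neuron and to 516 with the muscle markers. At 10 μg/kg they fell from 294 to 184 and 228. The genes most like Scg2 by deviations from the group means were Hspb6 (r 0.86), Sema3a (0.81) and Adgra2 (0.80). Whether Scg2 reads came from enteroendocrine cells or from the wall beneath was not tested.

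**Figure D4:**
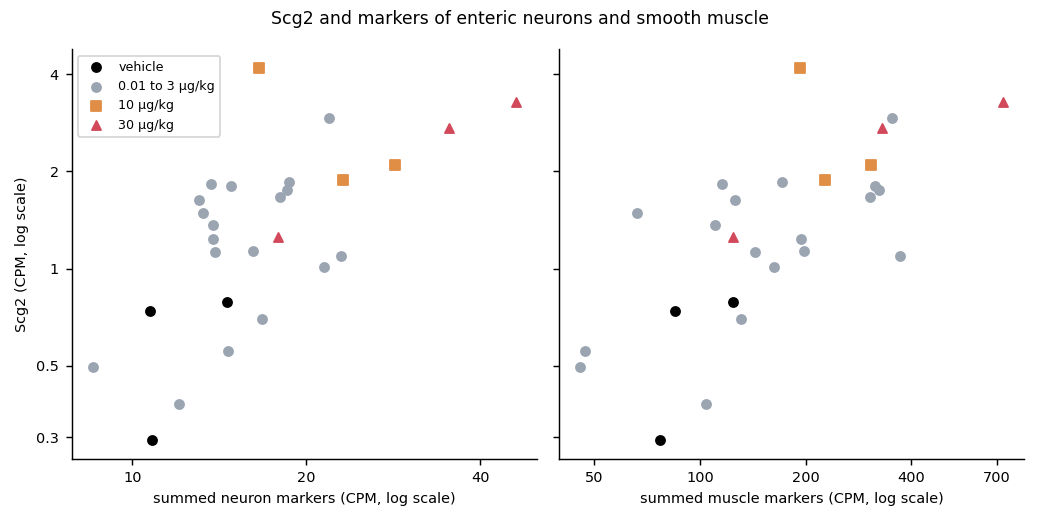
Scg2 (CPM, log scale) against the summed neuron markers (left) and muscle markers (right, CPM, log scale) in 27 mice, with vehicle, 10 and 30 μg/kg set apart by colour and shape. The 3 vehicle mice lie at 10.8 to 14.6 CPM of neuron markers and 2 of the 30 μg/kg mice above 35 CPM.

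Other genes of the granule and its machinery were described from a list of 24, all tested. At 30 μg/kg 4 were higher and 0 lower (2.95% and 3.21% of all genes), with a list median of 0.38 against -0.0022 over all genes: Pam, which amidates peptide hormones (2.62-fold, log2 1.39, SE 0.19, adjusted p 7.22e-05), Syt7, a calcium sensor of exocytosis (1.59-fold, log2 0.67, SE 0.11, adjusted p 0.000481), Syp, a vesicle membrane protein (2.06-fold, adjusted p 0.0166), and Cpe, a prohormone-trimming carboxypeptidase (1.77-fold, adjusted p 0.0383). Pam was also higher at 10 μg/kg (2.08-fold, adjusted p 0.00277, a call lost under 2 of 11 alternatives with an adjusted p of up to 0.0628) and at 30 against 3 μg/kg (2.20-fold, adjusted p 0.00255). Leaving out any 1 mouse kept the calls of Pam and Syt7 at 30 μg/kg, while that of Cpe was lost without mouse 2, 3, 4, 65 or 67 (adjusted p 0.0575 to 0.265) and that of Syp without mouse 4 or 67 (0.0842 and 0.1003). Pam and Syt7 are also made by other cells, and they rested on 1257 to 6514 and 1061 to 2341 counts per mouse. With the neuron markers in the fit Cpe was at log2 -0.04 (adjusted p 0.969) and Syp at 0.44 (adjusted p 0.570), while calls over all genes fell from 1016 to 317. The Syp call was lost under 6 of 11 alternatives and the Cpe call under 6, the change of sign included, while Pam and Syt7 at 30 μg/kg passed under all 11.

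Of 20 tested transcription factors of the lineage, 2 were lower at 30 μg/kg and none was higher (3.21% and 2.95% of all genes by edgeR), by edgeR as by DESeq2 and limma voom. Sox4, an early progenitor factor (0.613-fold, log2 -0.71, SE 0.096, adjusted p 7.22e-05), and St18 (0.421-fold, log2 -1.25, SE 0.26, adjusted p 0.00369) fell, while Neurod1 had a log2 of -0.08. Both kept their call without any 1 of the 6 mice. Among 12 tested nutrient and hormone sensors, Ffar2, the short-chain fatty acid receptor of L cells and leukocytes, fell (0.513-fold, log2 -0.96, SE 0.19, adjusted p 0.00201). That call was lost under 2 of 11 alternatives, both of which put the index set in the fit, and the log2 nearest to 0 was -0.54 (adjusted p 0.294). Galr1, a galanin receptor at a mean of 0.502 CPM, rose (2.80-fold, adjusted p 0.0304), a call lost without mouse 2, 3, 4, 66 or 67 (0.0662 to 0.109) and under 6 of 9 alternatives. Of the 12 tested hormone receptors, Sstr1, a somatostatin receptor, fell to 0.333-fold of vehicle (log2 -1.58, SE 0.21, adjusted p 5.13e-05) and to 0.318-fold of the 3 μg/kg level (log2 -1.65, SE 0.21, adjusted p 8.29e-05). The serotonin receptors Htr3a and Htr1d and the GLP-2 receptor Glp2r rose at 30 μg/kg, at mean levels of 0.325, 0.684 and 2.11 CPM, in mice in which the neuron markers were also higher, and the part of those cells was not tested. The calls of Htr1d (without mouse 2, 4, 66 or 67, adjusted p 0.0608 to 0.141) and Glp2r (without mouse 2, 3, 4 or 67, 0.0723 to 0.0976) each rested on single mice and were lost under 5 of 11 alternatives each. With the neuron markers in the fit no call remained among these 3 (adjusted p 0.355 for Htr3a, 0.462 for Htr1d and 0.389 for Glp2r). Over all 16496 genes the calls at 30 μg/kg fell from 1016 to 317 in that fit. Of 7 other hormone genes tested, Penk rose (6.00-fold, adjusted p 0.0165) and Nucb2 fell (0.601-fold, adjusted p 0.0451). The Nucb2 call was lost without any 1 of the 6 mice (2, 3, 4, 65, 66 and 67, adjusted p 0.0608 to 0.167), and under 5 of 11 other alternatives. That of Penk was lost without mouse 2, 3 or 67 (0.0608 to 0.108; log2 1.90 without mouse 67) and under 4 of 11 alternatives, over which its log2 ran from 0.81 with the neuron markers in the fit (adjusted p 0.689) to 4.86 with Hoxb13 and the index set.

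Further genes of the same cells were tested for the slope on Hoxb13, with which 5.02% of all genes rose and 4.1% fell. Of 9 tested genes of serotonin handling and its triggers other than Tph1, 4 rose with Hoxb13 (Piezo2, Slc6a4, Maob and Ddc) and 2 fell (Slc18a1 and Aldh1a1). Piezo2, the mechanosensitive channel of enterochromaffin cells, rose (log2 0.62 per doubling of Hoxb13, SE 0.050, adjusted p 7.82e-09), as did Slc6a4, the serotonin transporter of epithelium (0.43, SE 0.051, adjusted p 2.66e-06). Slc18a1, which loads serotonin into granules, fell with Tph1 (-0.18, SE 0.040, adjusted p 0.0039). Of 7 other hormones tested 3 fell and 0 rose: Sct (-0.28, adjusted p 0.000768), Nts (-0.36, adjusted p 0.00534) and Iapp (-0.51, adjusted p 0.025), the last lost without mouse 2, 11, 20, 28 or 35 (0.0539 to 0.0924). Of the 24 granule genes 1 rose, Pam (0.16, adjusted p 0.000633), and 2 fell, the prohormone convertase Pcsk1 (-0.23, adjusted p 0.00551) and Ptprn2 (-0.09, adjusted p 0.0074). Foxa2 was the 1 of 20 tested lineage factors with a slope (0.22, adjusted p 5.98e-05). The counts for granule genes and lineage factors are near the share over all genes and are no result about these lists. Among the receptors Htr4 (0.32, adjusted p 1.32e-05) and Npy1r, a receptor for peptide YY (0.43, adjusted p 0.000184), rose with Hoxb13 as Pyy did.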

How the data were processed

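The authors deposited 1 table of read counts per gene for each of the 27 mice. Per the submitters' processing notes the tools were FastQC 0.11.3, Trimmomatic 0.33, TopHat2 2.1.0, SAMtools 1.2.0, HTSeq 0.6.1 and DESeq, with GRCm38; the annotation release and the use of strand are not given in the sources used here. The 5 closing HTSeq lines were left out of totals (reads without a feature were 29.1 to 33.3%, reads not aligned uniquely 30.7 to 37.1% of all). Library totals ranged from 9305441 to 14371035, which limits precision for genes of few counts.

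Counts of all genes past filterByExpr (minimum count 10) were fitted in edgeR 4.0.16 (R 4.3.3) with TMM factors and a mean for each of 9 groups, and tested by quasi-likelihood with Benjamini-Hochberg adjustment over all genes. A call needed an adjusted p under 0.05 and, between groups, a fold of 1.5. The slope on position added centred log2 CPM of Hoxb13 (prior count 2). That over dose used ranks of the 9 groups. Standard errors are the log2 value over the root of F. CPM divide by the library total over the tested genes times its TMM factor, and values per kilobase also by the exon union of the gene. Alternatives were DESeq2 1.42.0, limma voom 3.58.1, RLE factors, no filter, other designs, other measures of position and each mouse left out. Covariates of neuron or muscle markers, Hoxb13 together with the index set, and leaving out 5 mice with pancreas transcripts were added after seeing the data. Analyses were tested on simulated data.

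The members and lists were chosen with earlier results of these data known. The text names up to 5 called genes per list and comparison, by adjusted p, and the 3 genes most correlated with a member; Hox, epithelial, islet and neuron genes named beyond these were chosen with their values in view. The mice were separate samples per the labels, and p-values measure the spread between these 27 libraries.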

Additional observations from a re-analysis of the deposited data

How the results depend on the processing

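No paired analysis was possible because the mouse numbers of any 2 dose groups have none in common. Of the 10 members, Insl5, Chga and Tph1 kept their slope on Hoxb13 past an adjusted p of 0.05 under all 13 alternatives, and Chgb under 12, with an adjusted p of 0.0628 in the second index set alone; Pyy lost the call under 5, Cck under 7 and Neurod1 under 6, while Sst gained one under 4 and Gcg in the first index set. The count of members with this slope was 3 in the second index set alone (11 mice) and between 4 and 8 with each mouse left out, and the 4 came without mouse 18 or mouse 20 at 0.03 μg/kg. With the second index set alone Gcg had a slope of 0.019 on Hoxb13.

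The calls of Scg2 depended on the processing. Over all doses, 0 members passed with limma voom, the neuron markers or the muscle markers in the fit, at 10 as at 30 μg/kg, and 1 passed in fits of the 2 groups compared and without the 5 mice with pancreas transcripts, 0 of these at 10 μg/kg. With each mouse left out the count was 0 at 10 μg/kg, 0 to 1 at 30 μg/kg and 0 at 30 against 3 μg/kg. Over dose rank 0 members passed with a term for the index set, alone or together with Hoxb13, and with log10 dose without vehicle, 3 passed with Hoxb13 in the fit, and 1 to 2 with each mouse left out, the 2 (Scg2 and Insl5) without mouse 18. Of all 16496 genes, 11 had a dose slope with the index set in the fit and 83 with Hoxb13 as well, against 3865 in the main fit. With neuron or muscle markers in the fit 1 passed, which was Sst (-0.15 and -0.11 per dose step) in place of Scg2. The cause was not tested.

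Members that were not called changed sign as follows, on the log2 scale. At 10 μg/kg a term for the index set gave -0.18 for Chga, -0.078 for Chgb, -0.21 for Cck, -0.16 for Neurod1 and 0.29 for Sst. There Cck was also below 0 with limma voom, neuron or muscle markers (-0.095 to -0.033), and Sst above 0 without the 5 mice with pancreas transcripts (0.36) and with Hoxb13 and the index set (0.77). At 30 against 3 μg/kg Gcg (0.074 to 0.23) and Sst (0.0084 and 0.039) turned positive, and Chgb (-0.025) and Tph1 (-0.15 to -0.0086) negative, under 1 to 3 alternatives each. With a term for the index set Chga was at -0.33, Chgb at -0.15 and Gcg at -0.047 at 30 μg/kg, and the dose slopes were -0.033 for Chga, -0.0082 for Chgb, -0.0016 for Gcg and 0.038 for Sst, the last at 0.072 with Hoxb13 added. With neuron markers in the fit, the values at 30 μg/kg were -0.18 for Chga, -0.015 for Chgb, -0.17 for Gcg and -0.98 for Sst, the dose slopes -0.0060 for Chga and -0.014 for Gcg, and Cpe, a called gene of the granule list, was at -0.035. Sst at 30 μg/kg was at -0.076 with limma voom and -0.61 with muscle markers. The dose slope of Neurod1 was 0.0097 with Hoxb13, 8.36e-05 with limma voom and 0.0019 without the 5 mice. With each mouse left out, the 30 μg/kg values ran from -0.17 to 0.17 for Chga, -0.049 to 0.38 for Gcg, -0.039 to 0.46 for Pyy, -0.63 to 0.43 for Sst and -0.19 to 0.093 for Neurod1, and the dose slopes from -0.0027 to 0.019 for Chga and -0.0086 to 0.0053 for Neurod1. Depth limits Cck, Sst and Scg2 most, with a lowest count of 4, 11 and 3 per mouse.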
